A study of Mus musculus with 65 samples.

Results

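Septin2, Septin8, Septin9, Wasl and Cdc42se2 are genes of the cell cortex: 3 septins and 2 proteins that bind the small GTPase Cdc42. They were taken by name from a table of 18036 mouse genes, of which 6786 had a count in any cell, and all 5 were found in it. The table holds 65 single long-term hematopoietic stem cells (LT-HSCs) from mice older than 20 months. All mice were SCL-tTAxH2B-GFP double heterozygotes, in which the SCL promoter drives the tetracycline transactivator that switches on a histone H2B-GFP label. A cell that divides after the label is switched off dilutes it, so a GFP-positive cell has divided little. The 2 groups are 37 GFP-positive, label-retaining cells (alr-hsc) and 28 GFP-negative, non-label-retaining cells (anlr-hsc), sorted from marrow of femora and tibiae as Lin- Sca-1+ Kit+ CD34-/low Flk2- CD48- CD150+. Both groups share strain, age and sort, and both were kept overnight at 3% oxygen with no growth factors before RNA was taken. The 4 biological repeats hold 9, 9, 10 and 9 cells of the first group and 8, 4, 6 and 10 of the second. The comparison asks whether the 2 classes of aged stem cell differ in these genes.

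Septins are GTP-binding proteins that join end to end into filaments beneath the membrane. They scaffold the division furrow and act as barriers that keep parts of the cortex apart. Wasl (N-WASP) links Cdc42 to the ARP2/3 complex, which nucleates branched actin, and Cdc42se2 (SPEC2) is a small membrane-bound protein that binds the GTP-bound form of Cdc42. In blood stem cells, loss of the uneven distribution of Cdc42 is known as a feature of ageing. RNA levels say nothing of where in a cell these proteins lie. Cdc42 itself is not analysed here.

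Each stretch printed next holds a short motif and is part of a coding sequence of the GENCODE vM21 annotation of mm10, read 5′ to 3′. In the septins the capitals mark the codons of the nucleotide-binding loop. In Wasl and Cdc42se2 the capitals mark the codons of the motif that binds Cdc42.
Septin2: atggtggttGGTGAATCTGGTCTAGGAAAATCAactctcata
Septin8: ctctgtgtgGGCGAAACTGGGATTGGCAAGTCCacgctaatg
Septin9: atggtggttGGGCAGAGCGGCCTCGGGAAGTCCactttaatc
Wasl: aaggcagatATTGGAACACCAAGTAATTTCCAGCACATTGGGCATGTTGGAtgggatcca
Cdc42se2: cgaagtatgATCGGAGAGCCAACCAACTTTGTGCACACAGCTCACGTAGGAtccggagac

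The septin stretches each cross an exon junction. Septin2 lies on the plus strand of chromosome 1, and its stretch joins exon 3 (chr1:93491268-93491277) to exon 4 (chr1:93495579-93495610). Septin8 is on the plus strand of chromosome 11, with exons 2 and 3 (chr11:53532107-53532116 and chr11:53534433-53534464). Septin9 is on the same strand, with exons 4 and 5 (chr11:117351611-117351620 and chr11:117352149-117352180). Wasl is on the minus strand of chromosome 6, with exons 6 and 7 (chr6:24626694-24626725 and chr6:24625069-24625096). The Cdc42se2 stretch lies within exon 4 on the minus strand (chr11:54723595-54723654).

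Over the whole coding sequence, Septin2 and Septin8 were identical at 59.6% of aligned bases, Septin2 and Septin9 at 58.3% and Septin8 and Septin9 at 53.8%. The capitals of Wasl and Cdc42se2 matched at 26 of 42 bases (61.9%). At a length of 50 bases, reads from the 5 genes can be told apart: no such stretch of any of their transcripts occurred in another of the 5. Septin2 shared 59 of its 8297 distinct 50-base stretches (0.711%) with other genes and Wasl 3 (0.0491%), and the others shared 0. Septin9 overlaps the antisense gene Gm16045, Cdc42se2 overlaps the antisense gene Gm12227 and the processed pseudogene Gm12229, and Wasl overlaps Gm42856 on its own strand. The kit does not mark strand, but no 50-base stretch of these 3 genes' transcripts occurred in those partners on either strand. The 3 shared stretches of Wasl were with Yars. Reads outside the annotated transcripts of these genes were not examined.

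Summed over the genes of the table, label-retaining cells held between 27954 and 20516069 counts with a median of 264894, and non-label-retaining cells between 86 and 661078 with a median of 118056. Of the 8 markers of stem cells in the table, Hlf was found in 31 label-retaining and 12 non-label-retaining cells, Gata2 in 24 and 10, Meis1 in 23 and 11 and Ifitm3 in 17 and 6. Hoxa9 (5 and 0), Hoxb5 (2 and 0) and Fgd5 (1 and 1) were rare. Cd48 and Flt3, which the sort excludes, were at 0, and so was Slamf1, the gene of CD150, for which the cells were sorted as positive. These cell numbers are out of 37 and 28. Of 3444 genes tested, 93.5% had the larger mean share of detecting cells in the label-retaining group. With Cd48 and Flt3 the list holds 10 genes, 7 of them with counts. It made up 0.0921 to 0.243% of the label-retaining sums per repeat and 0.000562 to 0.435% of the others. The ranges overlapped, and the highest value was in a non-label-retaining repeat. Erythroid markers (4 of 4 with counts) made up 0.00389 to 7.38% of the label-retaining sums per repeat and 0.239 to 2.39% of the others. B cell markers (3 of 4 with counts, Ebf1 at 0) reached 0.232% and 0.00103%, and the B cell receptor gene Cd79a, in 8 and 3 cells, had a log2 fold change of 6.43 ± 2.58 (SE; edgeR adjusted p = 0.348). Neutrophil markers (3 of 6, with Elane, Mpo and Ltf at 0) reached 0.00304 and 0.000194%, and monocyte and macrophage markers (3 of 5, with Csf1r and Adgre1 at 0) 0.0092 and 0%. Megakaryocyte markers (2 of 3, Gp9 at 0) reached 0.0119 and 0.0555%. The lists for T and NK cells (1 of 4), mast cells and basophils (0 of 1), endothelium (1 of 1) and stroma (2 of 4) reached at most 0.00702%. The part of these transcripts in the results was not tested.

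Some libraries resembled each other closely. Over 4645 genes the Pearson correlation of log2(CPM + 1), where CPM is counts per 1000000 counts of the library, had a median of 0.266 across 2080 pairs of libraries and of 0.358 across the 247 pairs within a group and repeat, and 5 pairs reached 0.85. The label-retaining libraries of repeat 3 with index 39, 40 and 41 correlated at 0.944 to 0.976. The label-retaining library with index 7 and the non-label-retaining library with index 17, both of repeat 1, correlated at 0.913 across the groups. The non-label-retaining libraries with index 51 and 52 of repeat 3 correlated at 0.858. Within these pairs the chi-square per gene was 22.3 to 172, but it covers counting error only, and amplified reads are not independent molecules, so it does not show that the libraries are separate. The labels list them as separate cells and they were kept, and shares, levels and co-detection are also given without them, which the thinned and neighbour values are not. Whether these libraries share material was not tested.

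Among the septins in the table, Septin2 was found in the most cells. Of 10 other septins looked for, 3 were in the table, so the ranking leaves out the rest. Septin2 is a core subunit of septin filaments. At least 1 count was present in 25 of the 37 label-retaining cells and 13 of the 28 others. In label-retaining cells its counts ran from 0 to 497 (median of the detecting cells 6), and in non-label-retaining cells from 0 to 9 (median of the detecting cells 3). Higher counts were in label-retaining cells: 11 of them and 0 of the others held at least 10 counts, and 7 and 0 held at least 100. The 7 cells came from repeats 1, 3 and 4, with 497, 356 and 190 counts in repeat 1, 222, 343 and 195 in repeat 3 and 233 in repeat 4. The 3 cells of repeat 3 are the linked libraries with index 39 to 41, and beside them repeat 3 had 1 further cell with at least 10 counts (14).

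By repeat, Septin2 was found in 77.8, 55.6, 70 and 66.7% of label-retaining cells and in 25, 25, 83.3 and 50% of non-label-retaining cells. The repeats of the groups overlapped, because non-label-retaining repeat 3 had the highest share of all 8. The means were 67.5% ± 9.22 and 45.8% ± 27.6 (SD, n = 4 repeats each), a difference of 21.7 percentage points (two-sided exact permutation p = 0.229; 0.523 after Benjamini-Hochberg adjustment over 3444 genes). Most genes leaned the same way: 93.5% of the 3444 had the larger mean share in label-retaining cells, the median difference was 19.4 points, and 43.3% had a larger difference than Septin2. With all linked libraries left out, the means were 63.6% ± 9.05 and 41.1% ± 27.1 (SD, n = 4). With at least 10 counts required, Septin2 was found in 44.4, 22.2, 40 and 11.1% of label-retaining cells and in 0% in each non-label-retaining repeat. At that threshold the groups did not overlap, as was true with label-retaining cells above for 12.4% of all genes (two-sided exact permutation p = 0.0286, the smallest that 4 against 4 can give; adjusted p = 0.230). Without the linked libraries the label-retaining shares at 10 counts were 37.5, 22.2, 14.3 and 11.1%, and the others again 0%. The 14.3% of repeat 3 came only from the library with index 42, which held 14 counts. That library correlated at 0.769, 0.776 and 0.81 with the removed libraries with index 39, 40 and 41, short of the cutoff for linked libraries. The lack of overlap without the linked libraries therefore depends on keeping the library with index 42.

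Depth differed along with this detection. Label-retaining cells with Septin2 had a median total of 514659 counts and those without it 253758, and the medians in non-label-retaining cells were 260875 and 27784. These medians pool repeats of unlike depth: the median total was 1654517 in label-retaining repeat 1 and 164961 in repeat 4. When each cell was thinned to 10000 counts, the expected share of cells with Septin2 was 37.9, 6.66, 44.1 and 27.1% in label-retaining repeats and 7.46, 15.1, 5.46 and 6.55% in the others. Label-retaining repeat 2 then lay among the non-label-retaining repeats and the other 3 above them. The means were 29.0% ± 16.4 and 8.65% ± 4.40 (SD, n = 4; two-sided exact permutation p = 0.0857). Thinning left out 4 non-label-retaining cells with fewer counts than that, and 0 label-retaining cells. After thinning the groups did not overlap, with label-retaining cells above, for 4.59% of all genes.

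As a level, the summed counts of Septin2 were 32.7, 6.45, 257 and 148 CPM (the sum for the gene scaled to the total of its repeat and group) in label-retaining repeats 1 to 4 and 12.1, 15.4, 5.35 and 7.93 CPM in the others. Label-retaining repeat 2 was again within the range of the non-label-retaining repeats. The log2 fold change of label-retaining over non-label-retaining sums was 2.04 ± 2.27 (SE, n = 4 sums each; edgeR quasi-likelihood test, adjusted p = 0.662). The median over all 2781 genes tested was 1.13 with TMM scaling, 1.77 with no scaling factors and 0.60 with DESeq2. Relative to those medians Septin2 stood at 0.91, 1.67 and 0.94. Leaving out all linked libraries took label-retaining repeat 3 to 29.2 CPM and the log2 fold change to 1.43, below the median of 1.65 in that fit.

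**Figure D1:**
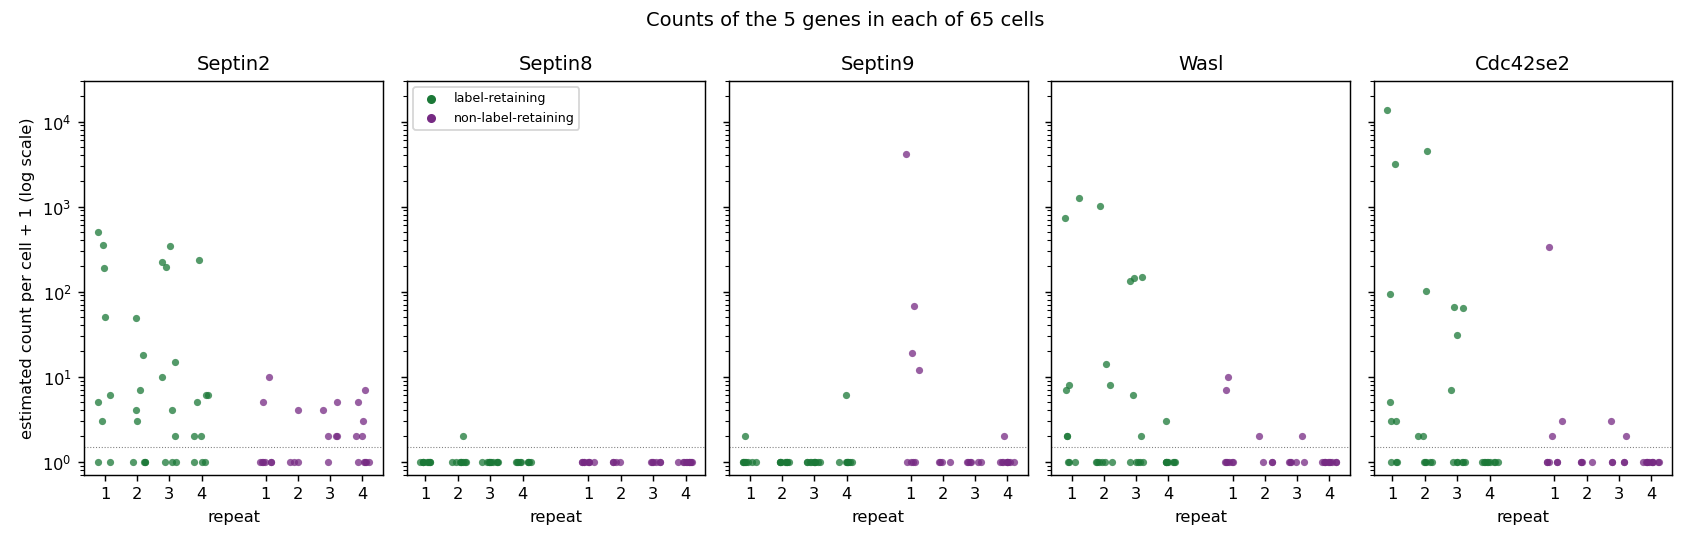
Estimated count plus 1 of each gene in each of the 65 cells on a log axis, by repeat, with label-retaining cells in green and non-label-retaining cells in purple; points below the dotted line have no count. Septin2, Wasl and Cdc42se2 reach 100 counts in 7, 6 and 4 label-retaining cells and in 0, 0 and 1 of the others, while Septin9 does so in 1 non-label-retaining cell.

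Septin8, whose protein can take the place of related septins at one position of the filament, was close to unseen. It had 1 count in 1 label-retaining cell of repeat 2, which held 3910113 counts in all, and no count in the other 64 cells. By 3 counts of the total, 0 of 28 non-label-retaining cells allows a detecting share of up to 10.7%, a limit for counting error that treats the cells as independent and takes no account of their depth. A difference between 1 and 0 cells was not detectable here. It did not pass the filter for the level test.

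Septin9, a subunit of the longer kind of septin complex, was the reverse of Septin2 in where its counts lay. It had a count in 2 label-retaining cells (1 and 5 counts) and in 5 non-label-retaining cells. Non-label-retaining repeat 1 held 4 of the 5, with 18, 67, 4173 and 11 counts, and the fifth, in repeat 4, held 1. The cell with 4173 counts alone gave 97.6% of all Septin9 counts of the table, and stood at 10462 CPM in that cell.

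The 4 cells of repeat 1 carried consecutive library indices, 18 to 21, and the strong cell was number 20. In the other 3 the Septin9 counts were 0.431, 1.61 and 0.264% of that of the strong cell, and their totals were 4.25, 22.5 and 30.9% of its total. Over all genes they correlated with it at 0.375, 0.439 and 0.431, against 0.204 to 0.364 for the other 4 cells of the repeat, so none is linked to it as the pairs above are. Whether reads passed between neighbouring libraries was not tested.

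The shares of cells with Septin9 were 11.1, 0, 0 and 11.1% in label-retaining repeats and 50, 0, 0 and 10% in the others. The mean difference was -9.44 points (two-sided exact permutation p = 0.886), and without non-label-retaining repeat 1 it was 2.22 points. Septin9 levels were 0.0296, 0, 0 and 2.98 CPM against 4137, 0, 0 and 0.567 CPM. With a count in 7 cells it was not among the genes tested. A fit with no filter on low counts gave a log2 fold change of -11.0 ± 3.48 (SE, n = 4; edgeR, adjusted p = 0.352), with 97.8% of the counts of non-label-retaining repeat 1 in the cell with 4173.

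Wasl had counts in 15 of the 37 label-retaining cells and in 4 of the 28 others. In the label-retaining group 6 cells held at least 100 counts: 740 and 1266 in repeat 1, 1010 in repeat 2, and 132, 149 and 142 in repeat 3. The last 3 are again the linked libraries with index 39 to 41. In the non-label-retaining group the counts were 9 and 6 in repeat 1 and 1 each in repeats 2 and 3. The cell with 9 is the library with index 17, which is linked to a label-retaining library with a Wasl count of 0.

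The shares of cells with Wasl were 66.7, 33.3, 50 and 11.1% in label-retaining repeats and 25, 25, 16.7 and 0% in the others. Label-retaining repeats 1 to 3 were above all non-label-retaining repeats and repeat 4 was not. The means were 40.3% ± 23.7 and 16.7% ± 11.8 (SD, n = 4), a difference of 23.6 points (two-sided exact permutation p = 0.143, adjusted p = 0.444), and 36.6% of all genes had a larger one. With all linked libraries left out the means were 37.0% ± 27.1 and 16.1% ± 11.9 (SD, n = 4). After thinning to 10000 counts the expected shares were 19.5% ± 14.4 and 6.08% ± 8.14 (SD, n = 4; two-sided exact permutation p = 0.2).

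Wasl levels were 59.9, 87.3, 140 and 1.19 CPM in label-retaining repeats and 14.5, 5.13, 0.535 and 0 CPM in the others. Repeats 1 to 3 were again above every non-label-retaining repeat. The log2 fold change was 3.52 ± 2.47 (SE, n = 4; edgeR, adjusted p = 0.533), or 2.38 above the median of all genes, and 16.2% of tested genes had a larger one. With all linked libraries left out it was 2.81, and label-retaining repeat 3, at 6.43 CPM, then lay within the range of the non-label-retaining repeats. With cells rescaled to the same total before summing, so that deep cells weigh no more than others, it was 1.62.

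Cdc42se2 was found in 14 label-retaining and 5 non-label-retaining cells. Its counts were the most uneven of the 3 common genes. In label-retaining cells they ran from 0 to 13866, with 3200 in a second cell of repeat 1, 4495 and 101 in repeat 2 and at most 65 in repeat 3. In repeat 4 all 9 cells had 0. Of the 5 non-label-retaining cells 4 held 1 or 2 counts and the other 331. The cell with 13866 and the cell with 331 are the cross-group linked pair of repeat 1, with index 7 and 17. Their totals were 20516069 and 340279.

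The shares of cells with Cdc42se2 were 66.7, 44.4, 40 and 0% in label-retaining repeats and 37.5, 0, 33.3 and 0% in the others. As for Wasl, label-retaining repeats 1 to 3 lay above all non-label-retaining repeats, and repeat 4 lay with the lowest of them. The means were 37.8% ± 27.8 and 17.7% ± 20.5 (SD, n = 4), a difference of 20.1 points (two-sided exact permutation p = 0.229, adjusted p = 0.523), beside the all-gene median of 19.4. With all linked libraries left out the means were 30.3% ± 28.4 and 13.4% ± 15.5 (SD, n = 4). Thinned, the expected shares were 19.1% ± 14.4 and 6.79% ± 12.7 (SD, n = 4; two-sided exact permutation p = 0.371).

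Cdc42se2 levels were 508.5, 389.8, 53.9 and 0 CPM against 323.6, 0, 1.605 and 0 CPM. Only non-label-retaining repeat 1 reached the range of the label-retaining repeats with counts, and 99.1% of its Cdc42se2 counts were in the library with index 17. The log2 fold change was 1.25 ± 2.04 (SE, n = 4; edgeR, adjusted p = 0.748), 0.12 above the median of all genes. Without scaling factors it was 1.56, which is 0.21 below the median of 1.77 in that fit. With each linked set counted once, so that the library with index 17 is left out, it was 5.26 (edgeR adjusted p = 0.297), and with all linked libraries left out 5.33 (adjusted p = 0.329). Without non-label-retaining repeat 1 it was 5.98 (adjusted p = 0.212).

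**Figure D2:**
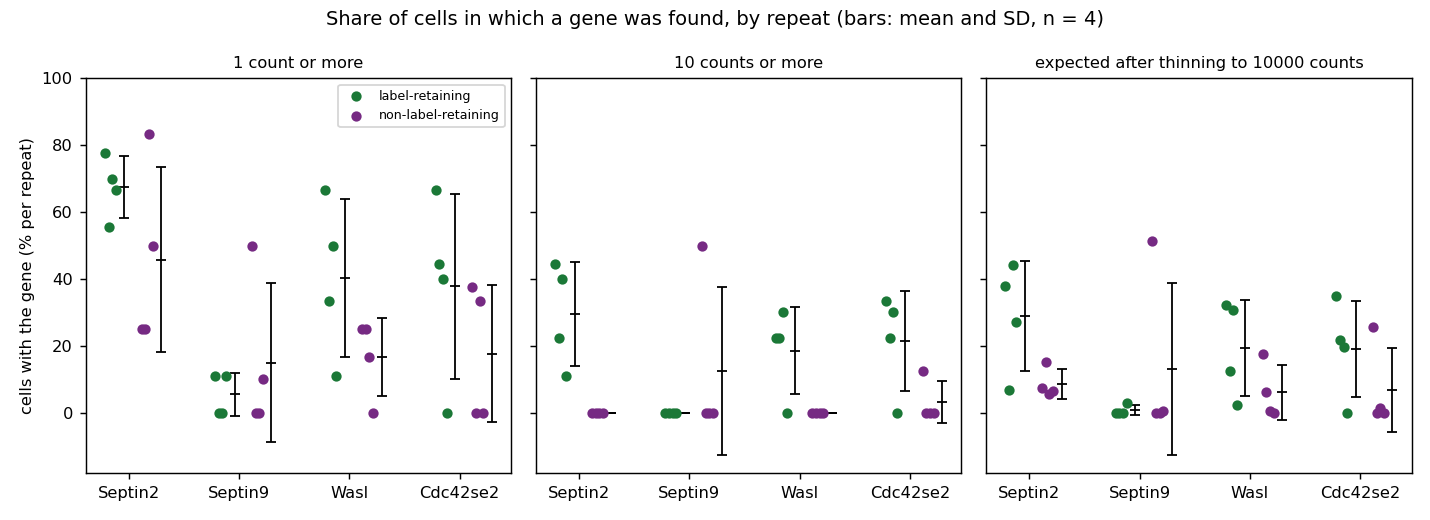
Share of cells with each gene in each repeat, in percent, at 1 count or more, at 10 counts or more, and as the share calculated for every cell thinned to 10000 counts; points are the 4 repeats of each group, and the bars beside them are the mean and SD, which can pass below 0. Among the panels, Septin2 at 10 counts or more is the case in which all 4 label-retaining repeats lie above all 4 others.

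Septin2, Wasl and Cdc42se2 did not pass the threshold of 0.05 in either test. Septin8 and Septin9, with counts in 1 and 7 cells, were in neither set of tested genes. At 1 count or more, 0 of the 3 common genes had shares without overlap, where 8.13% of all genes had label-retaining cells above and 0 had them below. Of 2781 genes edgeR called 0 (0%), the smallest adjusted p being 0.319, while 181 genes with positive and 125 with negative fold changes had an unadjusted p under 0.05, and DESeq2 called 11. The permutation test of shares called 0 of 3444 genes (smallest adjusted p 0.351), with 280 at an unadjusted p under 0.05. That test does not use the pairing of the repeats. With sign flips within the 4 pairs the smallest exact p is 0.125, so 0 genes, Rhob, Wipf2 and Septin2 included, can be under 0.05. The sums per repeat differed widely within groups, with a common dispersion of 3.37 in the edgeR fit, and 0 calls are no sign of likeness between the groups. Nothing in the labels says how many mice gave each repeat.

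**Figure D3:**
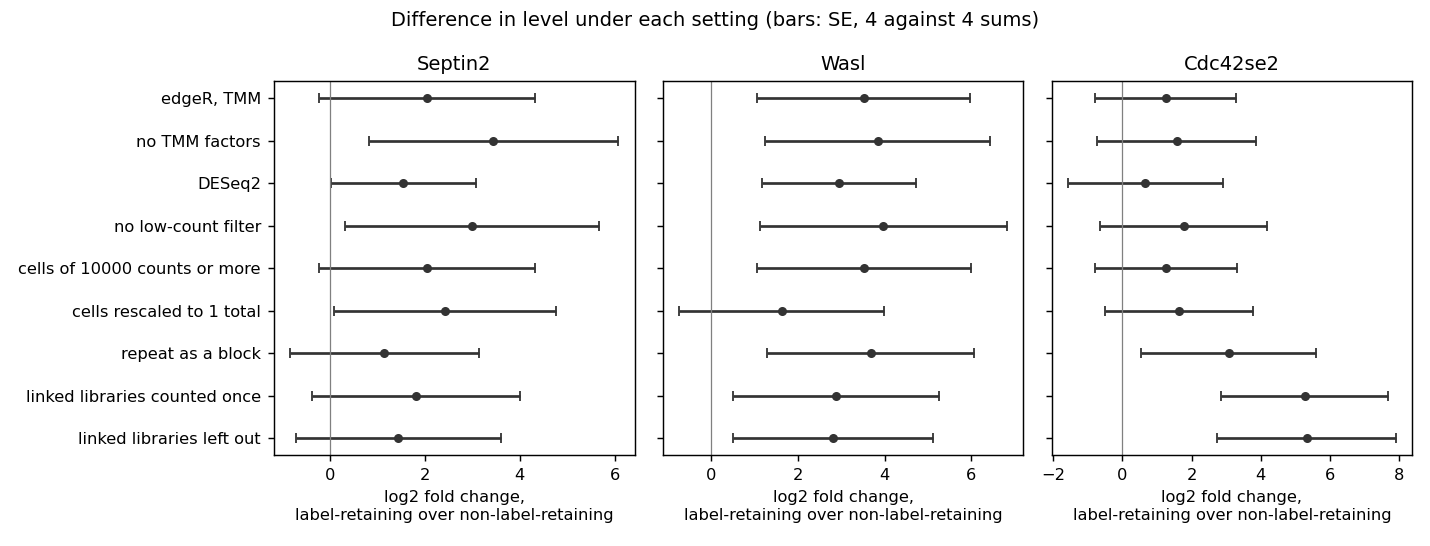
Log2 fold change of label-retaining over non-label-retaining sums with its SE for Septin2, Wasl and Cdc42se2 under 9 settings. All points are above 0, as is the median of all tested genes in each setting, from 0.604 to 2.1. Septin2 lies between 1.14 and 3.44 and Wasl between 1.62 and 3.97, and Cdc42se2 moves from 1.25 to 5.26 when each linked set counts once. Septin2 is below that median with the repeat as a block (1.14 against 1.84) and with linked libraries left out (1.43 against 1.65). Cdc42se2 is below it with no TMM factors (1.56 against 1.77) and with no low-count filter (1.77 against 2.1).

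Per kilobase of the longest coding transcript, the mean level in label-retaining repeats was 77.6 ± 81.3 CPM for Cdc42se2, 29.4 ± 30.5 for Septin2, 16.6 ± 13.3 for Wasl, 0.194 ± 0.384 for Septin9 and 0.00465 ± 0.00929 for Septin8 (SD, n = 4). The SDs are as large as the means or nearly so, and the first 3 neighbours in that order do not differ beyond their spread. In non-label-retaining repeats the levels were 267 ± 535 for Septin9, 26.5 ± 52.6 for Cdc42se2, 2.70 ± 1.18 for Septin2, 1.16 ± 1.55 for Wasl and 0 for Septin8. In that group Septin2 had the smallest spread relative to its level, and the places of Septin9 and Cdc42se2 each rest on 1 cell. Without the linked libraries the levels per kilobase were 52.6 ± 62.4 for Cdc42se2, 17.4 ± 16.6 for Septin2 and 14.2 ± 16.6 for Wasl in label-retaining repeats. In the others they were 0.408 ± 0.678, 2.14 ± 1.36 and 0.831 ± 0.935 (SD, n = 4).

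A few cells carried nearly all counts of each gene. The cells with at least 100 counts gave 90.3% of all Septin2 counts (7 cells), 98.3% for Wasl (6 cells) and 98.8% for Cdc42se2 (5 cells). The other cells that came directly before or after these in library index had a count of Septin2 in 5 of 6, of Wasl in 4 of 5 and of Cdc42se2 in 3 of 8. Cells elsewhere had one in 26 of 52 for Septin2, 9 of 54 for Wasl and 11 of 52 for Cdc42se2. For Septin9 both neighbours of the strong cell had counts, against 4 of 62 cells elsewhere. Libraries next to each other mostly share a group and repeat, and the part of that in these shares was not tested.

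**Figure D4:**
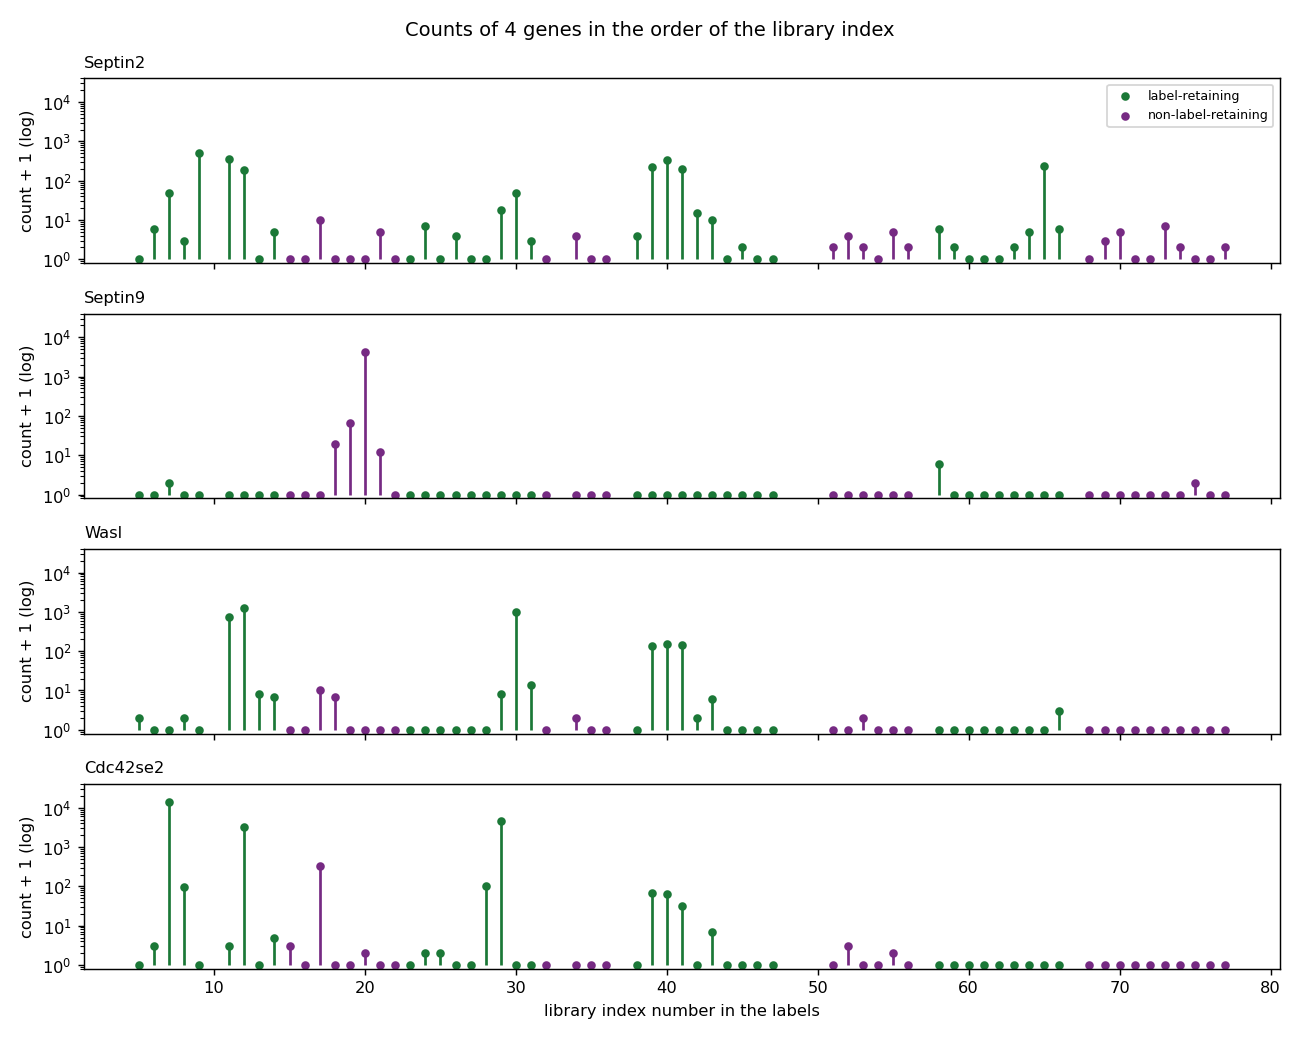
Estimated count plus 1 of Septin2, Septin9, Wasl and Cdc42se2 on a log axis against the library index in the labels, label-retaining cells in green and non-label-retaining cells in purple. Septin9 forms a single peak at indices 18 to 21, and Septin2, Wasl and Cdc42se2 are all high at 39 to 41, the linked libraries of repeat 3.

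The same cells often held several of the genes. Septin2, Wasl and Cdc42se2 were all found in 9 label-retaining cells (4 each in repeats 1 and 3, and 1 in repeat 2) and in 1 non-label-retaining cell, the library with index 17. Without the linked libraries the numbers were 6 and 0. None of the 5 genes was found in 8 label-retaining and 10 non-label-retaining cells. In the non-label-retaining group those 10 cells had a median total of 27534 counts and the cells with any of the 5 genes 259440. In the label-retaining group the medians were 253758 and 514659. That order held within each non-label-retaining repeat and in label-retaining repeat 3 (44548 and 242202). It was reversed in label-retaining repeats 2 (1005403 and 697583) and 4 (264894 and 127248). Label-retaining repeat 1 had no cell without any of the 5 genes.

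Over the 61 cells of at least 10000 counts, the phi coefficient of detection was 0.304 for Septin2 with Wasl, 0.231 for Septin2 with Cdc42se2 and 0.312 for Wasl with Cdc42se2. The medians against all 3435 genes were 0.183 for Septin2, 0.222 for Wasl and 0.208 for Cdc42se2, and the cells' depth and library enter all of these values. Over the 54 of these cells that are not linked, the 3 values were 0.283, 0.135 and 0.231. The genes detected most like Septin2 were Gps2 (0.537) and Map3k2 (0.514), like Wasl Ccdc142 (0.729) and Cmtm7 (0.674), and like Cdc42se2 Ppil3 (0.658) and Ppic (0.643).

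Around these genes lies a list of 103 other septins, small GTPases, their regulators and effectors, ARP2/3 subunits and polarity proteins. Of these, 58 were in the table, 50 had a count, and 30 were in the test of shares. All 30 had the larger mean share in label-retaining cells, as did 93.5% of all genes, with a median difference of 23.8 points against 19.4. After thinning 26 of 30 did, against 75.3% of all genes, with medians of 11.6 and 6.41 points. In 3 of 30 (10%) the repeats did not overlap, against 8.13% of all genes: Rhob, Wipf2 and Nck2, the last of which was named after its values were seen. After thinning this was so in 1 of 30 (3.33%, against 4.59% of all genes). With all linked libraries left out it was so in 2 of 30 (6.67%, against 6.74%). By level 29 were tested, 22 with a positive and 7 with a negative log2 fold change and a median of 1.46, where 65.2% of all 2781 genes were positive with a median of 1.13. None passed the adjusted threshold.

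**Figure D5:**
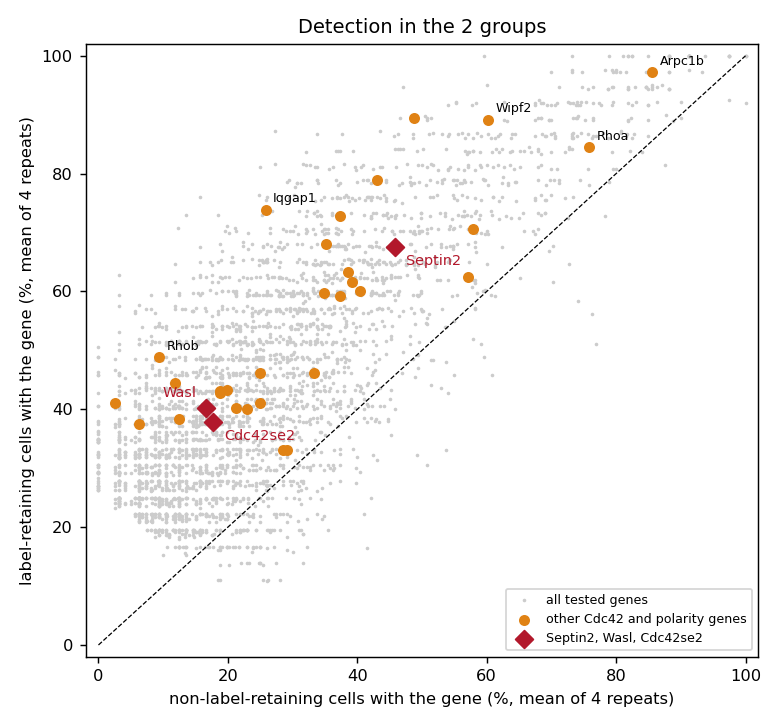
Mean share of cells with a gene over 4 repeats, in percent, in label-retaining against non-label-retaining cells, for all 3444 tested genes in grey, 30 other Cdc42 and polarity genes in orange and Septin2, Wasl and Cdc42se2 as red diamonds; the dashed line marks equal shares. The orange points and the red diamonds all lie above the line, within the band of grey points.

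Of the 3 other septins in the table, 2 had a count. Septin1 was found in 4 label-retaining cells and 1 non-label-retaining cell and Septin4 in 1 and 0. Of the GTPases related to Cdc42, Rhoa, which drives contraction through myosin, was found in 31 and 21 cells and Rac1, which builds lamellipodia, in 25 and 10. Rhob, a GTPase of endosomes, was found in 18 and 2 cells, at 48.9% ± 19.8 and 9.38% ± 12.0 (SD, n = 4 repeats; two-sided exact permutation p = 0.0286, adjusted p = 0.351). Its log2 fold change in level was 2.92 ± 2.42 (SE; edgeR adjusted p = 0.575). Of the regulators, the Cdc42 exchange factor Itsn2 was found in 29 and 10 cells, the GTPase inhibitor Arhgdib in 27 and 9, and the GTPase activator Arhgap17 in 23 and 10.

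The effectors, which bind active Cdc42 as Wasl and Cdc42se2 do, were led by the kinase Cdc42bpa (23 and 16 cells) and the scaffolds Iqgap1 (27 and 8) and Iqgap2 (17 and 9). The 6 effectors tested by level had log2 fold changes above 0, from 0.00059 for Cdc42bpa to 5.68 for Iqgap1, with a median of 1.48 beside 1.13 for all genes. Iqgap1 stood at 5.68 ± 2.46 (SE, n = 4; edgeR, adjusted p = 0.400). Of the 9 genes that act with Wasl on actin and were tested by level, 4 had positive and 5 negative log2 fold changes, with a median of -0.07. Arpc1b, a subunit of ARP2/3, was found in 36 and 24 cells with a log2 fold change of -0.07 ± 2.02. Its partner subunit Arpc2 was found in 33 and 13 cells and had a log2 fold change of -4.997 ± 2.63 (SE; edgeR adjusted p = 0.467), so that its share and its level pointed opposite ways. Wipf2, a binding partner of Wasl, was found in 33 and 17 cells, at 89.2% ± 0.556 and 60.2% ± 20.4 (SD, n = 4; two-sided exact permutation p = 0.0286, adjusted p = 0.351), with a log2 fold change of -1.33 ± 2.03 (SE; edgeR adjusted p = 0.737). Of the polarity complexes, the scaffold Pals1 was found in 16 and 5 cells, the kinase Stk11 in 16 and 3 and the kinase Mark3 in 14 and 2.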

How the data were processed

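The members and gene lists were chosen with earlier results of these data known. Reads of 65 single cells (SMART-Seq v4, Nextera XT, per the labels' protocols) were processed by the authors into a table of estimated counts per gene. The submitters' processing notes name mm10 and DESeq. Which aligner, counter and annotation the authors used is not given in the sources used here. Although the file calls its values normalized, totals per cell run from 86 to 20516069, and 78.2% of values between 0.5 and 20 are whole within 0.0001, so the deposited values were treated as unscaled expected counts. NCBI gene identifiers were matched to symbols through RefSeq of GRCm38.p6 (16216 of 18036).

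A gene was detected in a cell at a rounded count of at least 1. The repeat was the replicate: shares of cells per repeat were compared by two-sided exact permutation (4 against 4), for genes with a count in at least 10 cells. Thinned shares are expected shares at 10000 counts, computed without random draws. For levels, counts were summed per repeat and group, rounded, and tested with edgeR 4.0.16 (R 4.3.3; quasi-likelihood, robust, TMM factors of 1.43 to 2.07, except 0.285 and 0.223 in non-label-retaining repeats 3 and 4) where the mean count per cell was at least 10 and at least 10 cells had a count. Benjamini-Hochberg adjustment ran over all tested genes at 0.05. The SE given for an edgeR log2 fold change is its absolute value divided by the square root of the quasi-likelihood F statistic. For DESeq2 the SE is that of its own fit. Alternatives were DESeq2 1.42.0, no TMM factors, no filter, stricter detection, each repeat left out and the repeat as a block. Counting linked libraries once or leaving them out was chosen after seeing the data. Same-numbered repeats are 1 biological repeat per the labels, and deviations of their sums correlated across genes at 0.555, 0.273, 0.176 and 0.138 (highest with another repeat -0.174, -0.0662, 0.11 and 0.164, so that repeat 4 correlated more with another). The methods were tested on simulated data. Where nothing states separate mice, p-values measure the spread between these samples, and limits on shares of 0 (3 counts of the total) cover counting error only.

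Genes named beyond the 5 are, in each role of the list, the 3 detected in most cells, and for each common member the 2 with the highest phi coefficient.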

Additional observations from a re-analysis of the deposited data

Results flagged for a closer look

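In 5 of 20 groups of 4 repeats that were looked at for a value far from the others, 1 repeat stood apart. Septin8 in the non-label-retaining repeats was at 0 throughout, as a level and as a share, and was skipped because it has no range. The rate of about 1 in 20 by chance holds for continuous values and cannot be applied here, since a group with 3 repeats at 0 is marked whenever the other is not, and the single Septin8 count is marked both as a level and as a share. Septin9 in non-label-retaining repeat 1 was at 4137 CPM, with the other 3 repeats at most at 0.567. Septin9 in label-retaining repeat 4 was at 2.98 CPM, which is 5 counts in 1 cell. Cdc42se2 in non-label-retaining repeat 1 was at 323.6 CPM, nearly all of it in the library with index 17 that is linked to a label-retaining library. Septin8 in label-retaining repeat 2 was at 0.0848 CPM and in 11.1% of cells, both from a single count. Each of these values comes wholly or almost wholly from 1 cell. What set those cells apart was not tested.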

How the results depend on the processing

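Of 151 alternatives to the reported values, 145 counted as the same. For levels this meant the same direction and side of the threshold, and for differences in shares the same direction only. Counts had to stay within 1.5 times the reported count. DESeq2 called 11 of all tested genes where edgeR called 0. The number of list genes without overlap, 3, was 1 after thinning (3.33% of the list, 4.59% of all genes). It was 2 in cells of 10000 counts or more (6.67 and 5.17%). With linked libraries counted once (6.67 and 8.39%) or left out (6.67 and 6.74%) it was also 2. With a repeat left out it was 3 to 6. Dropping label-retaining repeat 1 gave 3 (10 and 8.83%), repeat 2 gave 4 (13.3 and 15.5%), repeat 3 gave 5 (16.7 and 12.7%) and repeat 4 gave 4 (13.3 and 13.3%). Dropping non-label-retaining repeat 1 gave 5 (16.7 and 17.0%), and dropping repeat 2 of that group gave 6 (20 and 13.9%). Repeat 3 of that group gave 4 (13.3 and 14.8%) and repeat 4 gave 3 (10 and 8.86%). The cause was not tested. The Septin9 difference in shares, -9.44 points, ran from -14.4 to 2.22 with a repeat left out and turned without non-label-retaining repeat 1, which holds 4 of its 5 non-label-retaining cells. With the repeats paired as a replicate block, the log2 fold changes were 1.14 for Septin2, 3.68 for Wasl and 3.07 for Cdc42se2. The median over all tested genes in that fit was 1.84, 0 genes were called, and no call of a member changed. With each repeat left out in turn the log2 fold change ran from 1.18 to 2.44 for Septin2, from 2.74 to 4.64 for Wasl and from 0.28 to 5.98 for Cdc42se2. The median over all tested genes ran from 0.662 to 2.56 in those fits. The difference in shares ran from 14.7 to 34.2 points for Septin2, from 14.8 to 33.3 for Wasl and from 10.4 to 32.7 for Cdc42se2. The repeats of Septin2 did not overlap without non-label-retaining repeat 3, as was true with label-retaining cells above for 14.8% of all genes. Those of Wasl and Cdc42se2 did not without label-retaining repeat 4, as for 13.3% of all genes. The adjusted p-values of the exact permutation test were then 0.326 for Septin2, 0.328 for Wasl and 0.397 for Cdc42se2. Septin8 had no difference to give at 10 counts or without label-retaining repeat 2. Septin8 and Septin9 had counts in 1 and 7 of 65 cells.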
